A study of Mus musculus with 6 samples.

Results

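Peroxiredoxins, superoxide dismutases, catalase and glutathione peroxidases are the enzymes that turn superoxide into hydrogen peroxide and hydrogen peroxide into water. The 10 genes Prdx1, Prdx2, Prdx3, Prdx5, Prdx6, Sod1, Sod2, Cat, Gpx1 and Gpx4 were followed in whole mouse heart. They were chosen as a named family and matched by gene symbol: 10 of 10 were found among 21705 genes in the expression table. Messenger RNA was measured in 6 libraries, each from the heart of a separate wild-type FVB female aged 12 to 16 weeks. The trametinib arm (n = 3) received trametinib, which blocks MEK1 and MEK2, the kinases upstream of ERK, at 3 mg/kg once daily for 14 days. The vehicle arm (n = 3) received vehicle once daily over the same 14 days, which a header of the table calls a PBS control. No allele or transgene was involved, and both arms were of the same strain, sex and age range.

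Heart muscle makes superoxide in its mitochondria as a by-product of respiration. Superoxide dismutase converts it to hydrogen peroxide, by the manganese enzyme of Sod2 inside mitochondria and by the copper and zinc enzyme of Sod1 in the cytosol. Peroxide is then removed by catalase in peroxisomes, by glutathione peroxidases that draw on glutathione, and by peroxiredoxins, most of which draw on thioredoxin. NADPH regenerates both glutathione and thioredoxin.

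With trametinib, 8 of the 10 transcripts fell and 2, those of Cat and Gpx1, did not pass the test. Relative to the vehicle mean, Sod2 fell by 15.2% and Prdx5, at the other end, fell by 46.9%. Tests were made with limma on log2(value + 1) over 13581 genes with a mean of at least 10 normalized counts, with Benjamini-Hochberg adjustment and a threshold of 0.05. All 10 passed that filter. Values after ± are SDs over the 3 hearts of an arm for means and standard errors for log2 fold changes. Over all genes tested, 22.8% were lower and 21.6% higher by the same rule, 44.5% in either direction, and 29.6% of the 2395 genes with mean values in the range of the 10 were lower. None of the 10 was higher (limma; 0 also at an unadjusted p under 0.05, and 0 with voom). The median log2 fold change was -0.50 over the 10 genes and -0.01 over all genes tested. The 3 trametinib values lay wholly below the 3 vehicle values for the same 8 genes, where 29.5% of all genes did so and 27% lay wholly above. Summed over the 10 genes, the hearts held 59583, 63743 and 59062 normalized counts with trametinib, against 83593, 83593 and 76486 with vehicle.

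**Figure D1:**
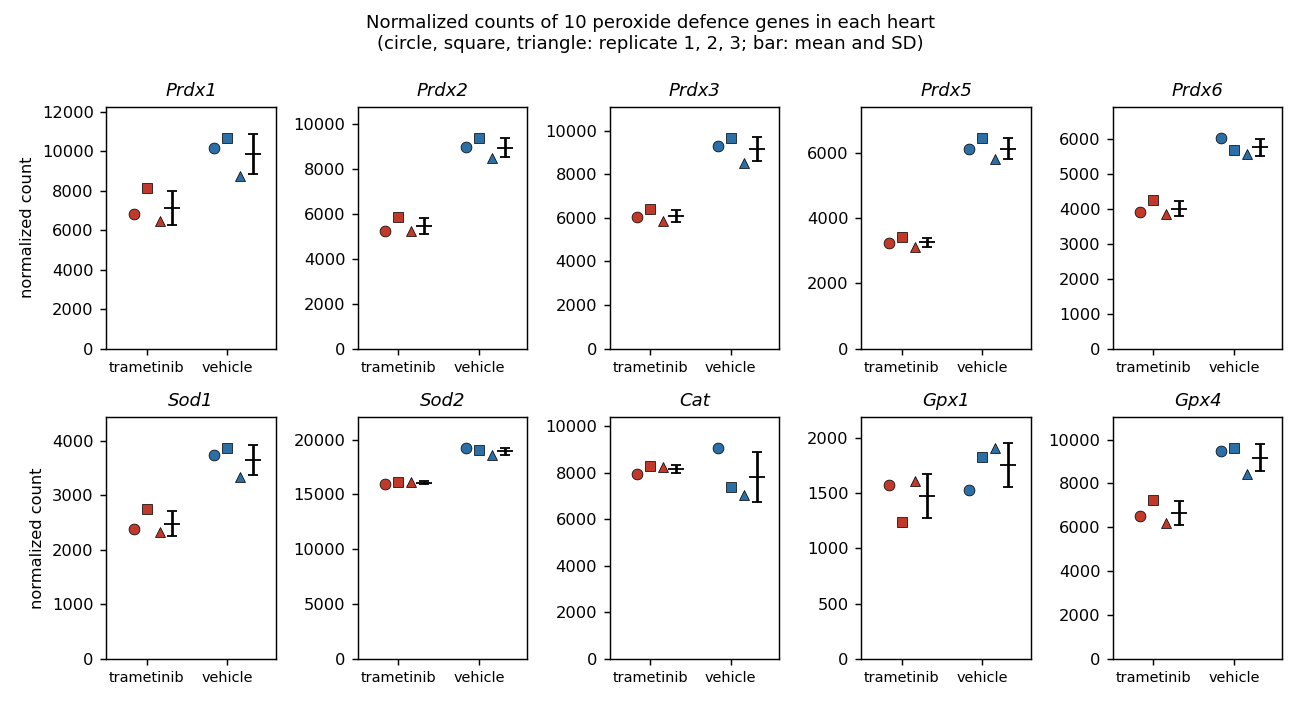
Normalized counts (vertical axis, from 0) of each of the 10 genes in the 3 trametinib hearts (red, left) and the 3 vehicle hearts (blue, right), with circle, square and triangle for replicates 1, 2 and 3 and a bar for mean and SD. The arms are apart for 8 genes and overlap for Cat and Gpx1.

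Totals of the deposited values were between 21656431 and 22330993 per heart. The step between low values put the depth at 23033856 to 24691501 reads in trametinib libraries and 14304826 to 16046500 in vehicle libraries, so depth went with treatment. Cardiomyocyte markers identified the tissue, with 11 of 11 tested and sums of 2576034 to 2702805 in trametinib and 2681485 to 2760835 in vehicle hearts. Single cardiomyocyte markers moved in both directions, with 7 of 11 lower and 4 higher (all genes: 22.8% lower, 21.6% higher). After the length and GC correction described further on, 2 were lower and 1 higher (all genes: 13.9% lower, 15.5% higher). With lengths averaged over all transcripts 2 were lower and 3 higher (all genes: 16.3% lower, 18.8% higher). Erythroid markers stood apart between the arms: 5 of 6 tested were higher, and the 7 of 10 found in the table summed to between 83239 and 250960 with trametinib, against 36956 to 47881 with vehicle. Neutrophil markers, with 8 of 9 tested higher, summed to 1837 to 3982 in trametinib and 203.5 to 659.5 in vehicle hearts. Macrophage markers summed to 7057 to 9363 in trametinib and 9501 to 10530 in vehicle hearts, with 3 of 10 lower. Fibroblast markers, with 4 of 7 lower and 1 higher, summed to 30477 to 34264 in trametinib and 32557 to 42801 in vehicle hearts. Endothelial markers, with 1 of 7 lower and 2 higher, summed to 19885 to 21163 in trametinib and 16242 to 18962 in vehicle hearts. No marker found in the table was at 0 in every library. In whole heart, fewer cells of a type and less RNA per cell cannot be told apart. Red blood cells are rich in the proteins of Prdx2, Cat and Gpx1, and the part of blood cells in the values of these genes was not tested.

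Superoxide dismutases stand first in the chain. Sod2 was the most abundant of the 10 genes in normalized counts, with 15921, 16129 and 16153 in trametinib hearts, against 19209, 19074 and 18567 in vehicle hearts. Every trametinib heart was below every vehicle heart, and the spread inside each arm was small (16068 ± 127 with trametinib and 18950 ± 338 with vehicle, SD, n = 3 each). The log2 fold change of Sod2 was -0.24 ± 0.05 (SE; limma adjusted p = 0.00533). Sod1 had 2380, 2745 and 2322 normalized counts with trametinib, against 3742, 3864 and 3334 with vehicle. Again the arms did not overlap, and Sod1 fell by 31.9% (log2 fold change -0.56 ± 0.09; limma adjusted p = 0.00192). The ratio of Sod2 to Sod1 was 6.69, 5.88 and 6.96 in trametinib hearts and 5.13, 4.94 and 5.57 in vehicle hearts. In these deposited values the mitochondrial form therefore made up more of the pair in each trametinib heart than in any vehicle heart. No test was run on the ratio. On the log2 scale it differed by 0.32 between the arms. After the corrections for transcript length described further on it differed by -0.77 with the principal transcript, which turns the sign, and by 0.46 with the mean of all transcripts, which does not.

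Catalase, the peroxisomal enzyme that splits hydrogen peroxide without a reducing partner, was the only one of the 10 with a higher mean in trametinib hearts. Cat measured 7954, 8299 and 8254 normalized counts with trametinib, against 9054, 7378 and 7028 with vehicle. The trametinib hearts lay close together and inside the range of the vehicle hearts, of which replicate 1 was high. The log2 fold change was 0.07, with a 95% interval of -0.15 to 0.29 (limma adjusted p = 0.565). Without vehicle replicate 1 Cat passed at 0.18 (limma adjusted p = 0.0458). Without vehicle replicate 3 its value was -0.001 (limma adjusted p = 0.995). Among the hearts left out, only vehicle replicate 1 changed whether Cat passed. The ratio of Cat to Prdx5 was 2.46, 2.44 and 2.64 in trametinib hearts, against 1.48, 1.14 and 1.21 in vehicle hearts. These are deposited values, with log2 fold changes of 0.07 for Cat and -0.91 for Prdx5, which stood at 0.11 and -0.44 after the length and GC correction by the principal transcript.

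Glutathione peroxidases use glutathione to reduce peroxides, and both Gpx1 and Gpx4 are selenoproteins, whose messenger RNA carries an in-frame TGA codon that is read as selenocysteine. The coding stretches around that codon are shown because they set these genes apart from the other 8. They were read from the GENCODE M21 transcripts (GRCm38, the C57BL/6J reference and not FVB), with 30 coding bases on either side of the TGA, which is in capitals. The codon is number 47 in the principal Gpx1 transcript and number 73 in that of Gpx4, counted from the start codon, and 35 of the 63 bases are identical between the genes.
Gpx1: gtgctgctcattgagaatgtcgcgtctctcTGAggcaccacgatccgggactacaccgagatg
Gpx4: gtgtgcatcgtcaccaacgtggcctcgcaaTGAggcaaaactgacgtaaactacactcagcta

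Gpx1, the general cytosolic and mitochondrial form, had 1577, 1243 and 1608 normalized counts in trametinib hearts, against 1526, 1827 and 1906 in vehicle hearts. Vehicle replicate 1 fell among the trametinib values, and the interval of the log2 fold change ran from -0.54 to 0.04 around -0.25 (limma adjusted p = 0.139). Gpx4, the form that reduces lipid peroxides in membranes, had 6530, 7255 and 6204 with trametinib, against 9480, 9599 and 8452 with vehicle. All trametinib hearts were lower, and the mean fell by 27.4% (log2 fold change -0.46 ± 0.08; limma adjusted p = 0.0028). Both length corrections turned its sign, to 0.14 and 0.17, neither past the threshold. The ratio of Gpx4 to Gpx1 was 4.14, 5.84 and 3.86 in trametinib hearts and 6.21, 5.25 and 4.43 in vehicle hearts, with overlapping arms.

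Peroxiredoxins are thiol peroxidases, and their 5 transcripts summed to 25221, 28072 and 24521 normalized counts in trametinib hearts, against 40583, 41851 and 37198 in vehicle hearts. Prdx5, an enzyme of mitochondria, peroxisomes and cytosol, showed the largest decrease of the 10 genes in the deposited values: 3233, 3408 and 3126 with trametinib, against 6119, 6451 and 5818 with vehicle. The 2 arms were far apart relative to their spread (3256 ± 142 with trametinib and 6130 ± 317 with vehicle, SD, n = 3 each; log2 fold change -0.91 ± 0.06; limma adjusted p = 0.000183). Prdx3 is the other mitochondrial peroxiredoxin and works with mitochondrial thioredoxin. It had 6031, 6407 and 5839 normalized counts with trametinib, against 9291, 9673 and 8550 with vehicle. All trametinib hearts were again the lower ones, and Prdx3 fell by 33.6% (log2 fold change -0.59 ± 0.07; limma adjusted p = 0.000533). The ratio of Prdx5 to Prdx3 was almost constant within each arm, at 0.536, 0.532 and 0.536 in trametinib hearts and 0.659, 0.667 and 0.681 in vehicle hearts. Its log2 difference of -0.32 between the arms was -0.17 after correction by the principal transcript and -0.02 by the mean of all transcripts.

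Among the cytosolic peroxiredoxins, Prdx2 had 5243, 5872 and 5240 normalized counts in trametinib hearts, against 8962, 9381 and 8514 in vehicle hearts. In the deposited values this was the largest decrease of the 10 next to that of Prdx5, and Prdx2 fell by 39.1% (log2 fold change -0.72 ± 0.07; limma adjusted p = 0.000335). Its close relative Prdx1 had 6809, 8128 and 6475 with trametinib, against 10191, 10673 and 8742 with vehicle. The arms of Prdx1 were nearest to touching, in proportion, among the 8 that fell, with 8128 in trametinib replicate 2 and 8742 in vehicle replicate 3 (log2 fold change -0.47 ± 0.11; limma adjusted p = 0.00983). Prdx2 relative to Prdx1 stood at 0.770, 0.723 and 0.809 with trametinib, and at 0.879, 0.879 and 0.974 with vehicle. Prdx6, which reduces phospholipid peroxides and draws on glutathione instead of thioredoxin, had 3906, 4257 and 3841 with trametinib, against 6020, 5672 and 5574 with vehicle. Its log2 fold change was -0.53 ± 0.06 (limma adjusted p = 0.000642). Pseudogene copies of Prdx1, Prdx2, Prdx6 and Gpx4 are annotated, and reads could have been shared between copies in the authors' counting, so the values of these genes carry that uncertainty.

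Promoters of the antioxidant family are known for antioxidant response elements, to which the factor NRF2 binds. RefSeq windows (GRCm38.p6) of 250 bases before and 50 after a start matched 9 of the 10 genes, with several windows for Gpx4. Genome-wide shares below are per window and not per gene. The element's core TGACNNNGC, searched on both strands, was found in the windows of Prdx1 and Sod1, and in 12.4% of 32851 windows genome-wide. Both matches were to the reverse strand. The 250 bases before the start of these genes are shown because they hold those matches, in capitals.
Prdx1, chr4:116685349-116685598, plus strand, GRCm38.p6: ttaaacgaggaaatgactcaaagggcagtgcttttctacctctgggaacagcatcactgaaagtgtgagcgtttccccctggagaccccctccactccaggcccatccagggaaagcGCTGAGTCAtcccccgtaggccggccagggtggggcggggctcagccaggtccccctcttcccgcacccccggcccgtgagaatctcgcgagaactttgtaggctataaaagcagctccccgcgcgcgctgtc
Sod1, chr16:90220512-90220761, plus strand, GRCm38.p6: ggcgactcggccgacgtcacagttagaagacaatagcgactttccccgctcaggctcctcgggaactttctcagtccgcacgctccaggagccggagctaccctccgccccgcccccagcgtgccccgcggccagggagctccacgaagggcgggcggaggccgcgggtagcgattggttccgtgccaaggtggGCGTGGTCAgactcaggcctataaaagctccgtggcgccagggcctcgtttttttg

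Motifs of other factors were searched in the same way. An ETS core, CCGGAAGT, was found in the window of Prdx5 and in 3.89% of all windows. The FOXO core TGTTTAC (3.65% of windows) and the NRF1 motif (0.971%) were found in none of the 9. A match describes letters only, and no binding was measured in these hearts.

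Within each arm the order of the hearts was similar for many of the 10 genes, which were measured in the same libraries. Trametinib replicate 2 had the highest trametinib value for 8 genes, namely all but Sod2 and Gpx1, and trametinib replicate 3 the lowest for the 5 peroxiredoxins, Sod1 and Gpx4. Among vehicle hearts, replicate 3 was lowest for 9 genes, with Gpx1 as the exception, for which it was highest. Trametinib replicate 3 also lay apart from the other trametinib hearts over all genes, at 56.9 on the first principal component against 27.4 and 30.6, with vehicle hearts between -47.2 and -28.7. Leaving out any 1 heart kept all 8 decreases past the threshold, with limma adjusted p-values up to 0.0381.

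Compared per length, as normalized counts per kilobase of the principal transcript in GENCODE M21, Gpx4 was highest in both arms, at 6948 ± 561 in trametinib and 9569 ± 658 in vehicle hearts (SD, n = 3 each). In trametinib hearts Prdx1 (4502 ± 551), Prdx3 (4122 ± 196), Sod1 (3873 ± 358) and Prdx2 (3711 ± 248) followed, each within the SD of its neighbour. In vehicle hearts the same 4 genes lay at 5689 ± 433 (Sod1) to 6224 ± 634 (Prdx1) per kilobase. Below them, Cat (3126 ± 71.7), Sod2 (2741 ± 21.7), Prdx5 (2580 ± 113), Prdx6 (1676 ± 93.8) and Gpx1 (1377 ± 189) formed the lower part of the order with trametinib. With vehicle that lower part was Prdx5 (4857 ± 251), Sod2 (3233 ± 57.7), Cat (2993 ± 414), Prdx6 (2411 ± 98.2) and Gpx1 (1636 ± 187). Prdx5 thus stood 8th per kilobase with trametinib and 6th with vehicle, and Cat 6th and 8th. The order depends on the transcript chosen: with the mean length of all transcripts, Sod2 came to 9266 and 10928 per kilobase and Sod1 to 1077 and 1582 in trametinib and vehicle hearts.

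Transcript length went with the fold change over all genes. Across 13239 genes with a known principal transcript the Spearman rho between length and log2 fold change was 0.51, a description over genes that do not stand for replicates. When the genes were split by length into 5 bins of nearly equal size, the bin of shortest transcripts ended at 1687 nt and held 57.5% lower and 5.02% higher. Prdx1, Prdx2, Prdx3, Prdx5, Sod1, Gpx1 and Gpx4 fall there, and 6 of these 7 were lower. Prdx6 belongs to the next bin, where 28.9% were lower and 8.84% higher, and Cat to the middle one, where 14.7% were lower and 16.4% higher. None of the 10 is in the bin after that (8.41% lower, 28.7% higher). Sod2, with a principal transcript of 5861 nt, is in the bin of longest transcripts, where 4.61% were lower and 50.4% higher. Its annotated transcripts vary widely in length (mean 1734 nt), and the one used by the heart was not measured.

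**Figure D2:**
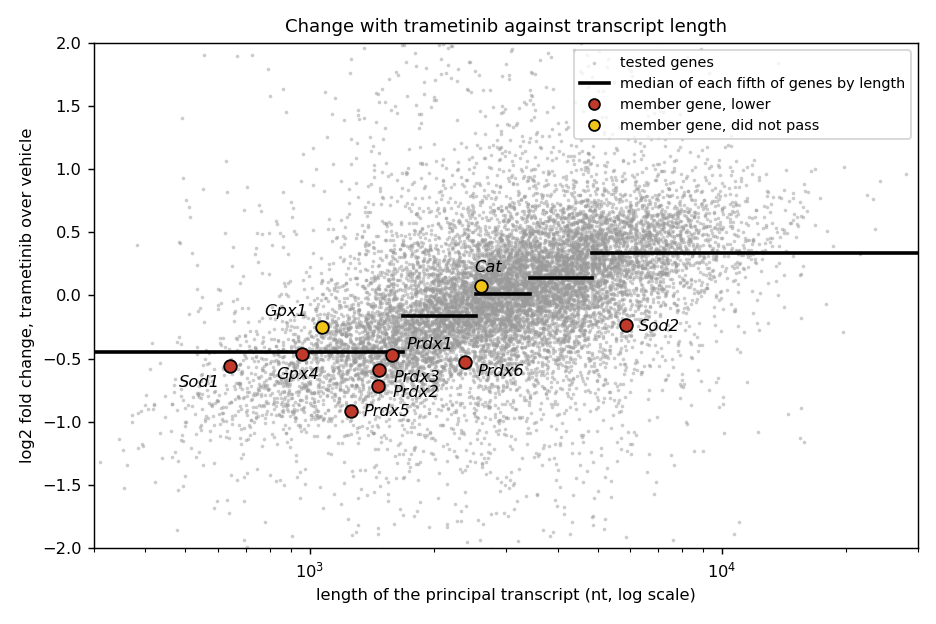
Log2 fold change, trametinib over vehicle (vertical axis), against the length of the principal transcript in nt (log scale) for tested genes in grey, with 195 of 13239 beyond the axes. Black lines are medians of 5 bins by length, and the 10 genes are named. In the bin of shortest transcripts lie 7 of them, and its median is -0.45. All of the 10 except Cat and Gpx1 lie below the median of their bin.

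Subtracting the trend with length and GC content in each library left 5 of the 10 genes lower and 1 higher, where 13.9% of genes were then lower and 15.5% higher. Prdx5 (-0.44; limma adjusted p = 0.00297), Prdx2 (-0.37; adjusted p = 0.00673), Prdx3 (-0.28; adjusted p = 0.0141), Prdx6 (-0.45; adjusted p = 0.00339) and Sod2 (-0.57; adjusted p = 0.000848) remained lower. Sod2 and Prdx6 then had larger decreases than Prdx5, and with lengths averaged over all transcripts Sod1 did. Prdx1 no longer passed (-0.19; limma adjusted p = 0.195). Gpx4 changed sign without passing (0.14; limma adjusted p = 0.177), as did Gpx1 (0.28; adjusted p = 0.139). Sod1 was then higher (0.20; limma adjusted p = 0.0364). With lengths averaged over all transcripts, an alternative chosen after seeing the data, 6 genes were lower and none higher, where 16.3% and 18.8% of genes were. Sod1 was then lower again (-0.68; limma adjusted p = 0.004), so the sign of Sod1 after correction rests on whether its length is taken as 641 or 2306 nt. Prdx2, Prdx3, Prdx5, Prdx6 and Sod2 were lower as deposited and after both corrections. The correction removes any change that follows length, whether it arose in the hearts or in the measurement, and these cannot be told apart here.

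**Figure D3:**
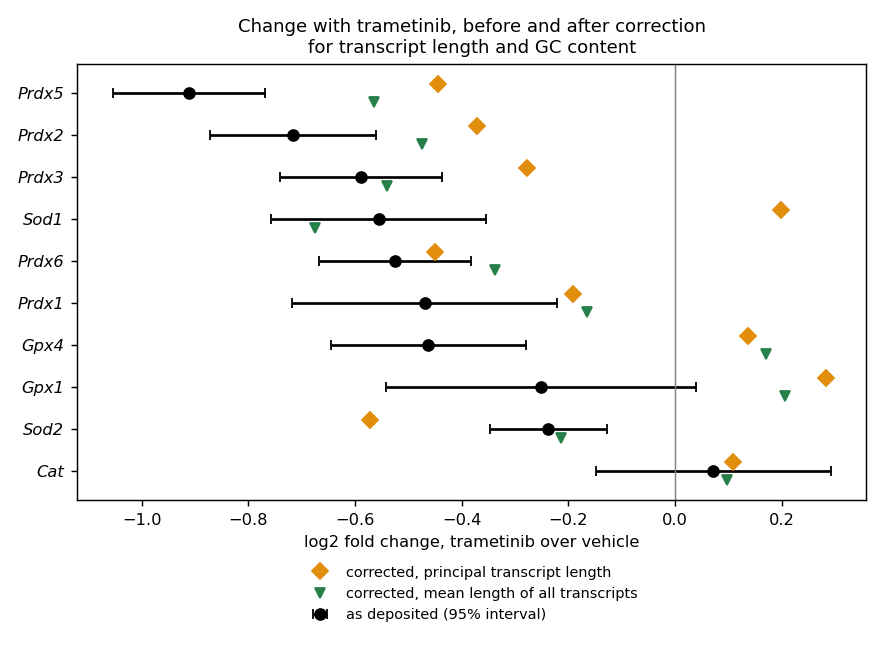
Log2 fold change, trametinib over vehicle (horizontal axis), of the 10 genes as deposited (black, with 95% interval) and after correction for transcript length and GC content by the principal transcript (orange) or by the mean of all transcripts (green). Sod1 lies at -0.56, 0.20 and -0.68, while Prdx5 stays below 0 at -0.91, -0.44 and -0.56.

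Over the 6 libraries, the genes whose centred log2 profile lay closest to each member were ranked by root mean square distance among 10642 tested genes with a mean of at least 100. Prdx5 was nearest to Higd1a (0.02), 1810058I24Rik (0.03) and Ccdc142 (0.03). Prdx2 lay nearest to Grpel1, Chchd7 and Idh3b (0.02 each), and Prdx3 to Rnf7, Bola3 and Idh3g (0.02 each). Prdx6 was closest to Tmem134, BC003965 and the thioredoxin gene Txn2 (0.02 each). For Prdx1 the nearest were Gng5 and Cox16 (0.04 each) and another of the 10, Gpx4 (0.05). Sod1 was nearest to Eef1b2, Cox16 (0.02 each) and Apoo (0.03), Gpx4 to Fyb, 0610009B22Rik and Sdhb (0.03 each). Sod2 had the closest neighbours of all, Napa, Vegfb and Snx5 (0.01 each). Cat was nearest to Usp39 (0.03), Lztfl1 and Cln6 (0.04 each), and Gpx1 to Timp2 (0.04), Alas1 and Hsd17b12 (0.05 each).

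Relatives of the 10 genes were mostly lower. Of 6 tested further peroxiredoxin, glutathione peroxidase and dismutase genes, 4 fell and 1 rose (all genes: 22.8% fell, 21.6% rose). The endoplasmic reticulum enzyme Prdx4 averaged 282.5 ± 21.9 normalized counts with trametinib and 476.8 ± 43.5 with vehicle (log2 fold change -0.75 ± 0.10; limma adjusted p = 0.00118). Gpx7, another enzyme of that compartment, fell (-0.88 ± 0.18), as did Gpx8 (-0.41 ± 0.12) and Ccs, the copper chaperone of Sod1 (-0.47 ± 0.09). The length and GC correction ended all 4 calls, with values of -0.22, -0.45, 0.07 and 0.06. With all-transcript lengths Prdx4 stayed lower (-0.45, limma adjusted p = 0.01185), and Gpx7, Gpx8 and Ccs did not pass. The call of Gpx8 was also lost without any 1 of 5 hearts (limma adjusted p up to 0.096). Gpx3, the secreted plasma form, rose (10264 ± 1364 with trametinib and 8075 ± 777 with vehicle; log2 fold change 0.34 ± 0.11; limma adjusted p = 0.0386). It is named here after its values were seen, its arms overlapped, and with hearts left out its adjusted p reached 0.116. Gpx3 stood at 0.68 after the length and GC correction (limma adjusted p = 0.00381) and at 0.66 with all-transcript lengths (limma adjusted p = 0.00391). Sod3, the extracellular dismutase, measured 872.2 ± 162 with trametinib and 995.2 ± 136.5 with vehicle and did not pass. It too was chosen after its values were seen, and with all-transcript lengths it was lower (-0.48, limma adjusted p = 0.0197).

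Thioredoxin reduces most peroxiredoxins after each turn. Of 12 genes of that cycle 6 fell, 3 rose and 3 did not pass (all genes: 22.8% fell, 21.6% rose). Both thioredoxins fell. Txn1, the cytosolic form, had 1075, 1179 and 1083 normalized counts in trametinib hearts, against 1867, 2063 and 1765 in vehicle hearts (log2 fold change -0.77 ± 0.08; limma adjusted p = 0.000414). Txn2, the mitochondrial form, had 4195, 4325 and 4035 with trametinib, against 6381, 5978 and 5834 with vehicle (-0.53 ± 0.06; limma adjusted p = 0.000478). After the length and GC correction they stood at -0.29 and -0.23, past the threshold. The reductases moved in different directions. The mitochondrial Txnrd2 fell (657.4 ± 48.4 with trametinib and 903.1 ± 51.02 with vehicle; -0.46 ± 0.08), as did Txnrd3 (-0.39 ± 0.08), and the cytosolic Txnrd1 rose (2817 ± 157 with trametinib and 2252 ± 170 with vehicle; 0.32 ± 0.07; limma adjusted p = 0.00997). After the length and GC correction Txnrd2 (-0.34), Txnrd3 (-0.38) and Txnrd1 (0.30) kept their calls. With all-transcript lengths Txnrd2 missed the threshold (-0.23, limma adjusted p = 0.0886), and Txnrd3 and Txnrd1 passed. Sulfiredoxin, Srxn1, which repairs over-oxidised peroxiredoxins, rose by 0.29 ± 0.10 (limma adjusted p = 0.0459). It is named after its values were seen, and with hearts left out its adjusted p reached 0.136. With voom 1 gene of the cycle rose in place of 3, and Srxn1 missed the threshold (adjusted p = 0.0602).

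Of 13 genes of glutathione synthesis and recycling, 6 fell, 1 rose and 6 did not pass (all genes: 22.8% fell, 21.6% rose). Glrx5, the mitochondrial glutaredoxin of iron-sulfur cluster assembly, fell: it averaged 1389 ± 70.6 with trametinib and 2150 ± 44.2 with vehicle (log2 fold change -0.63 ± 0.06; limma adjusted p = 0.000365). Glrx2 (-0.41 ± 0.07), glutathione synthetase Gss (-0.51 ± 0.08) and Ggct (-0.76 ± 0.12) fell as well, and all 4 stayed lower after the length and GC correction. Glrx and Glrx3 also fell and lost their calls there (0.13, limma adjusted p = 0.208, and -0.17, limma adjusted p = 0.216). Both were named after their values were seen, and with all-transcript lengths both were lower. After the correction 5 of the 13 were lower and 1 higher, where 13.9% and 15.5% of all genes were. With all-transcript lengths 7 were lower and 4 higher, where 16.3% and 18.8% of all genes were. The transpeptidase Ggt5 rose (0.75 ± 0.13). Both subunits of the rate-limiting ligase missed the threshold, Gclc at 471 ± 45.3 with trametinib and 428 ± 61.7 with vehicle and Gclm at 501.2 ± 26.5 with trametinib and 386.2 ± 77.5 with vehicle (limma adjusted p = 0.389 and 0.0548), as did glutathione reductase, Gsr (770 ± 44.2 with trametinib and 683 ± 50.3 with vehicle). These and Ggt5 were chosen after their values were seen. Gclc, Gclm and Gsr did not pass after the length and GC correction either. With all-transcript lengths Gclm (0.49, limma adjusted p = 0.0271) and Gsr (0.35, limma adjusted p = 0.0101) were higher, and Gclc did not pass. With voom Gclm passed (0.39, adjusted p = 0.0457), and Gclc and Gsr did not.

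NADPH supply had 5 of 13 genes lower and 3 higher (all genes: 22.8% lower, 21.6% higher). The mitochondrial isocitrate dehydrogenase Idh2, the most abundant of the list in heart, had 32089, 39203 and 32613 normalized counts with trametinib, against 55315, 53643 and 47870 with vehicle (log2 fold change -0.60 ± 0.10; limma adjusted p = 0.00223). After the correction it stood at -0.31 and no longer passed (limma adjusted p = 0.0705). The pentose phosphate enzymes Pgls (-0.55 ± 0.08) and Taldo1 (-0.32 ± 0.06) fell, and the correction turned both to 0.06 and 0.13 without passing. With all-transcript lengths Pgls stayed lower (-0.33, limma adjusted p = 0.0144) and Taldo1 did not pass (-0.008, limma adjusted p = 0.922). Malic enzyme, Me1, rose by 0.32 ± 0.08 (3283 ± 87.1 with trametinib and 2638 ± 279 with vehicle). The correction ended this call at 0.25 (limma adjusted p = 0.051), and with all-transcript lengths Me1 stayed higher (0.24, limma adjusted p = 0.04855).

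NRF2 is the main inducer of many antioxidant genes. Of 16 genes of its pathway and targets 2 fell, 3 rose and 11 did not pass (all genes: 22.8% fell, 21.6% rose). Hmox1, which breaks down haem, fell most: 197.4, 218.5 and 287.6 normalized counts with trametinib, against 409.8, 604.0 and 549.5 with vehicle (log2 fold change -1.15 ± 0.19; limma adjusted p = 0.00235; -0.82 after the correction). The epoxide hydrolase Ephx1 fell too (-0.52 ± 0.07). Bach1, a haem-binding repressor of Hmox1 and other such genes, rose, as did Txnrd1 and Srxn1 above. Bach1 averaged 1677 ± 238.5 with trametinib and 1036 ± 176 with vehicle (log2 fold change 0.70 ± 0.14). The correction ended the call of Bach1 (0.37, limma adjusted p = 0.0756), and with all-transcript lengths it stayed higher (0.47, limma adjusted p = 0.03355). Nfe2l2, which encodes NRF2, measured 2736 ± 255 with trametinib and 2373 ± 261 with vehicle (limma adjusted p = 0.13), and Nqo1, a classic target, 1832 ± 159 with trametinib and 1686 ± 248 with vehicle (limma adjusted p = 0.402). Both were chosen after their values were seen. After the correction 3 of the 16 were lower and 6 higher, where 13.9% and 15.5% of all genes were. With all-transcript lengths 3 were lower and 7 higher, where 16.3% and 18.8% of all genes were. Nqo1 passed after the correction (0.42, limma adjusted p = 0.0279) and not with all-transcript lengths (0.16, limma adjusted p = 0.332).

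Enzymes that make superoxide or peroxide had 1 of 14 genes lower, 1 higher and 12 not passing (all genes: 22.8% lower, 21.6% higher). Xdh, which oxidises purines to urate, had 6005, 6464 and 6763 normalized counts in trametinib hearts, against 3879, 2823 and 3236 in vehicle hearts (log2 fold change 0.96 ± 0.11; limma adjusted p = 0.000662; 0.77 after the correction). Cyba, the membrane subunit of NADPH oxidase, fell (303.2 ± 28.7 with trametinib and 521.1 ± 66.7 with vehicle; -0.78 ± 0.12), a call that ended at -0.06 after the correction. Its partner Cybb measured 246 ± 54.9 with trametinib and 165 ± 33.4 with vehicle (limma adjusted p = 0.0588), chosen after its values were seen.

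Selenoproteins and the genes of their synthesis, to which Gpx1 and Gpx4 are related by the TGA codon shown above, had 9 of 18 lower, 3 higher and 6 not passing. Of all genes tested, 22.8% were lower and 21.6% higher. Sepx1, a methionine sulfoxide reductase, had 1754, 1725 and 1684 normalized counts with trametinib, against 3498, 3374 and 3244 with vehicle (log2 fold change -0.97 ± 0.05; limma adjusted p = 0.000176). Pstk, the kinase in the pathway that makes the selenocysteine tRNA, fell (-0.80 ± 0.10), as did 2700094K13Rik, the gene now named Selenoh (-0.88 ± 0.10). Secisbp2l rose (0.60 ± 0.06). After the correction the counts were 2 lower and 4 higher, where 13.9% and 15.5% of all genes were. Sepx1 at -0.44 and Pstk at -0.35 were still lower. The call of 2700094K13Rik ended (-0.19; limma adjusted p = 0.143), and Secisbp2l stayed higher at 0.21 (limma adjusted p = 0.0191).

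Peroxisome biogenesis genes, which serve the organelle that houses catalase, had 9 of 16 lower and none higher (all genes: 22.8% lower, 21.6% higher). The count higher was also 0 at an unadjusted limma p under 0.05 and with voom. The import receptor Pex7 had 639.4, 702.6 and 632.2 normalized counts with trametinib, against 1040, 1160 and 1020 with vehicle (log2 fold change -0.70 ± 0.08; limma adjusted p = 0.00058; -1.15 after the correction). Pex5, the receptor for most peroxisomal enzymes including catalase, fell (549.4 ± 11.4 with trametinib and 733.4 ± 12.2 with vehicle; -0.42 ± 0.06), and so did Pex19 (-0.50 ± 0.09) and Pex16 (-0.60 ± 0.12). Of these 4, the call of Pex16 ended after the correction (-0.18; limma adjusted p = 0.249).

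Regulators of antioxidant genes had 6 of 15 higher, 2 lower and 7 not passing (all genes: 21.6% higher, 22.8% lower). Nfe2l1, a relative of NRF2, had 17687, 18479 and 18280 normalized counts in trametinib hearts, against 12245, 11015 and 11476 in vehicle hearts (log2 fold change 0.65 ± 0.06; limma adjusted p = 0.000296). The FOXO factors, which are known to drive Sod2 and Cat in other settings, rose in the case of Foxo1 (1896 ± 305 with trametinib and 1042 ± 155 with vehicle; 0.86 ± 0.14) and Foxo3 (1434 ± 120 with trametinib and 928 ± 65.2 with vehicle; 0.63 ± 0.09). Foxo1 kept 0.42 after the correction (limma adjusted p = 0.0498) and missed the threshold with all-transcript lengths (0.31, adjusted p = 0.119). Foxo4, chosen after its values were seen, rose as well, by 0.28 ± 0.07 (limma adjusted p = 0.0145). Foxo4 missed the threshold after the correction (0.28, limma adjusted p = 0.0547) and passed with all-transcript lengths (0.31, limma adjusted p = 0.0359). Sirt3, the mitochondrial deacetylase that activates the Sod2 protein, fell (705.8 ± 31.95 with trametinib and 1193 ± 34.98 with vehicle; -0.76 ± 0.07; limma adjusted p = 0.000289).

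**Figure D4:**
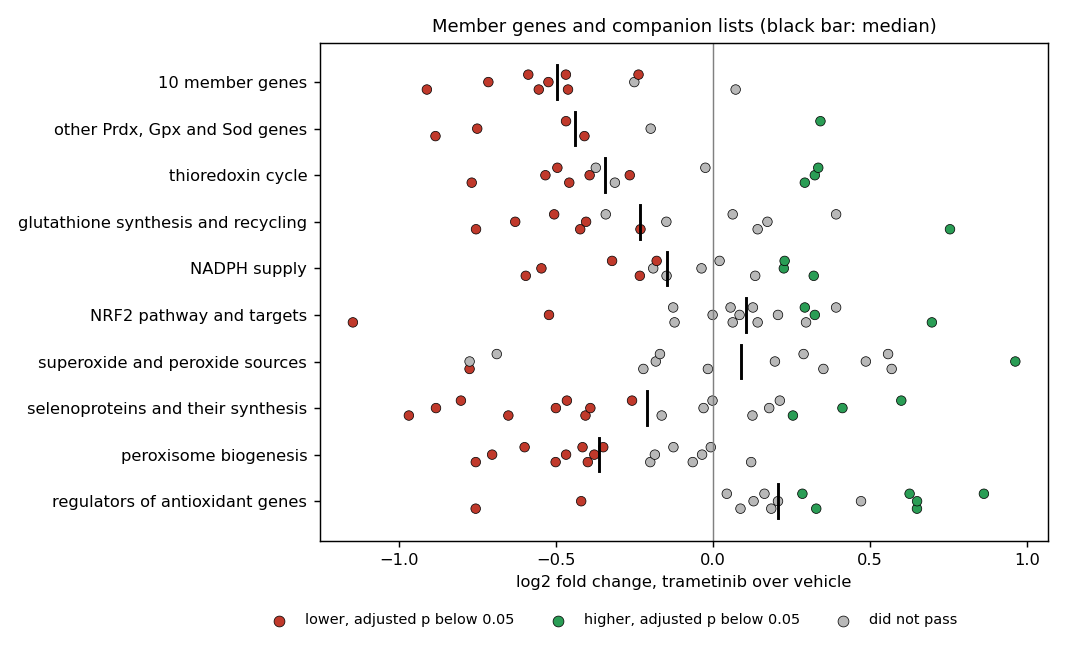
Log2 fold change, trametinib over vehicle (horizontal axis), of every tested gene among the 10 genes and 9 companion lists (rows), coloured by call, with the list median as a black bar. The medians run from -0.50 for the 10 genes to 0.21 for the regulators.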

How the data were processed

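Library totals, depth and arms are given above. RNA was isolated with either of 2 kits, libraries came from a stranded kit and shared 1 single-end run, per the labels' protocols. The sources used here do not tie a kit to a heart. The submitters' processing notes name Picard 1.64, SAMtools, RSEM, DESeq2 and the build mm9 without role or order. Each deposited value is a normalized signal. From the values themselves, the authors scaled estimated read counts by a single factor in each library: the upper quartile of values above 0 was 997.9 to 999.5 in every library. Of values below 50 steps, 87.5% to 89.4% lay within 0.05 of a whole multiple of the library's step, too few for a count test. Further per-sample columns (1) stand under the control header of the table, matched no labelled sample and were not used. Symbols of 26 rows were restored from their identifiers.

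Genes were tested with limma 3.58.1 (R 4.3.3, mean-variance trend, pseudocount 1, two-sided) over the 6 hearts without a block. Fold changes on the log2(value + 1) scale understate changes of low genes. Lengths and GC content came from GENCODE M21 (97.5% of tested genes, all 10 members), and the correction subtracted a lowess curve (span 0.3) on length, then GC content. The members, the 9 pathway lists and the 6 marker lists were chosen with earlier results of these data known. The genes named in each pathway list are up to 4 with the smallest p among those past the threshold; others are marked as chosen after their values were seen. The code was tested on simulated libraries. Alternatives covered pseudocount, filter, scaling, correction, block, voom on estimated reads, robust estimation and each heart left out.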

Additional observations from a re-analysis of the deposited data

How the results depend on the processing

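The count of member genes lower (8) held under both pseudocounts, no filter and a stricter filter, median-of-ratios and quantile scaling, voom on estimated reads, robust estimation, and without any 1 heart (8 lower in each). The length and GC correction left 5 lower, 1 higher; with the replicate block added, 5 lower and 0 higher. Without vehicle replicate 1 the count higher was 1 (Cat), and it ran from 0 to 1 over the hearts left out. For all genes lower and all genes higher, the correction gave 1835 lower and 2047 higher, and 1519 lower and 1726 higher with the block. Among the 117 companion genes, 44 were lower and 19 higher (all genes: 22.8% lower, 21.6% higher). These counts became 24 and 22 with the correction (all genes: 13.9% lower, 15.5% higher), and 22 and 23 with the block added. The correction turned the sign of Sod1 (0.20, also with the block), Gpx1 (0.28), Gpx4 (0.14), Gpx8 (0.068), Ccs (0.063), Pgls (0.06) and Taldo1 (0.13). With all-transcript lengths Gpx1 (0.21), Gpx4 (0.17) and Ccs (0.066) turned. Cat ran from -0.001 to 0.18 over the hearts left out. The cause of these shifts was not tested beyond the correction's own construction.

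The labels number the females 1 to 3 in each arm. Deviations of same-numbered hearts from their arm means correlated at 0.24, 0.02 and 0.50. Trametinib replicates 1 and 3 correlated best with the vehicle heart of their own number, and trametinib replicate 2 with vehicle replicate 1 (0.28). The hearts share only a number in the labels and were not taken as pairs. With the replicate number as a block, 8 of the 10 genes were lower, and the counts of all genes lower and all genes higher were 2877 and 2885. No call changed among the 44 genes that the rule named. Of the companion genes outside the rule, Srxn1, Sesn3, Me3 and 1110020G09Rik (Nadk2) lost their calls, and Gclm, Nfe2l2 and Ppargc1a gained one.

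The 95% intervals of Cat and Gpx1 included 0. Vehicle libraries were shallower than all trametinib libraries, so depth and treatment cannot be told apart, and no comparison at matched depth was made.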
